A study of Mus musculus with 4 samples.

Results

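Olfactory receptor genes of chromosomes 6, 10, 11 and 15 were examined for H3K27me3, the trimethylated histone lysine that Polycomb complexes place on silent genes, in GL261 cells, an established line of mouse glioblastoma. The members were the 188 protein-coding genes with an Olfr symbol on these chromosomes, of 21887 protein-coding genes in the mm10 RefSeq annotation: 28 on chromosome 6, 68 on chromosome 10, 83 on chromosome 11 and 9 on chromosome 15. The chromosomes were chosen by their measured peaks, so the counts of peaks on them are a description and were not tested. Another 922 Olfr genes lie on other chromosomes.

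The study compared irradiated with control GL261 cells by chromatin immunoprecipitation and sequencing, each condition having 1 H3K27me3 and 1 input library. Labels call the groups IR and Con; the series title shows that IR stands for irradiation, and for its dose and time the sources used here give nothing. All 4 libraries came from the same line, grown in the same medium, and no treatment of the control cells is named. The deposited peak lists of the 2 H3K27me3 libraries were used, with 16091 irradiated and 9866 control peaks, and input libraries were not used here. Since a group is 1 library, no difference has a replicate check, and every interval below covers counting error only. RNA was not measured, so neither the identity of the cells nor transcription of the receptors could be checked.

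Olfactory receptors are G protein-coupled receptors through which sensory neurons of the nose detect odorants. Their genes have short coding sequences, stand in tandem clusters, and are silent outside a few cell types; each sensory neuron transcribes a single receptor allele. In the olfactory epithelium of the mouse, silent receptor genes are known for the heterochromatin marks H3K9me3 and H4K20me3 more than for H3K27me3.

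Because promoters of receptor genes differ in base composition from those of most genes, the RefSeq windows from 250 bases before to 50 bases after the annotated start (GRCm38.p6, the assembly of mm10) were read. A window was at hand for 158 of the 188 members, with 159 windows in all. A peak covered part of such a window in 6 members in the irradiated list (Olfr286, Olfr288, Olfr311, Olfr312, Olfr1380 and Olfr1394) and in 2 in the control list (Olfr213 and Olfr1396). Of these, 4 are shown in which the start codon follows the first 250 bases and the peak covers bases after it. Olfr213 and Olfr1380 also meet this and are not shown. The peak covers the start codon itself at Olfr311 and Olfr1394, but begins at base 276 at Olfr312 and at base 291 at Olfr1396. Capitals mark the bases under the peak. Olfr311 (chr11:58840866-58841165, plus strand), Olfr312 (chr11:58830906-58831205, plus strand) and Olfr1394 (chr11:49159766-49160065, plus strand) are marked for their irradiated peak, and Olfr1396 (chr11:49113708-49114007, minus strand) for its control peak.
Olfr311: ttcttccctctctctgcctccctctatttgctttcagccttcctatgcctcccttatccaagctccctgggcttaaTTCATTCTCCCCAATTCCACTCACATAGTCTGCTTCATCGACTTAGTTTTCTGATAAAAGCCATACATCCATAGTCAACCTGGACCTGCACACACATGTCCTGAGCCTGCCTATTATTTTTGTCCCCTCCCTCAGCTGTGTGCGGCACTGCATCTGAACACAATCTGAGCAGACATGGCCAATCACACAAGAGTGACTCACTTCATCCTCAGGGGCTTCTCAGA
Olfr312: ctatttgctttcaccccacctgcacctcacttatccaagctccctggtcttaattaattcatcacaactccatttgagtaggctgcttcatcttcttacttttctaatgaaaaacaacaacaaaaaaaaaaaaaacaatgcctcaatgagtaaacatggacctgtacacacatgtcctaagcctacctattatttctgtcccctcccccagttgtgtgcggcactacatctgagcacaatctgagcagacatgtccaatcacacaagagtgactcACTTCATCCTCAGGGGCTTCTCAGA
Olfr1394: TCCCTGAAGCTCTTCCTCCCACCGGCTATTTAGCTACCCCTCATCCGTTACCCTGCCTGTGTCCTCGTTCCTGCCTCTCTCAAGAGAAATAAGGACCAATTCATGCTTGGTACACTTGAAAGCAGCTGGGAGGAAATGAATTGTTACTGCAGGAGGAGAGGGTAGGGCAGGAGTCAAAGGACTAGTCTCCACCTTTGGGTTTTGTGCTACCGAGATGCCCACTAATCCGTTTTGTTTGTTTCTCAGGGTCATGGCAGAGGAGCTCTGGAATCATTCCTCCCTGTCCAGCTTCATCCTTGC
Olfr1396: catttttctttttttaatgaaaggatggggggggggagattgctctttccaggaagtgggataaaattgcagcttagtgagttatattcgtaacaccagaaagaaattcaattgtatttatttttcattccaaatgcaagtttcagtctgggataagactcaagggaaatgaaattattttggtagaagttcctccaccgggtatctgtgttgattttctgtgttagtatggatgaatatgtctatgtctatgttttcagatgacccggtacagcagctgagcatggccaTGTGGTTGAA
The irradiated peaks covered 224 of the 300 bases at Olfr311, 25 at Olfr312 and all 300 at Olfr1394, and the control peak covered 10 at Olfr1396. The peak at Olfr1394 was weak, with 8 reads and 2.71-fold enrichment (q = 0.857). How many windows of all protein-coding genes a peak covers was not computed, so the counts of 6 and 2 members have no background here. Olfr311 and its neighbour Olfr312 were alike in 79.3% of the window in a global alignment, the closest match of either in their cluster.

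The members' windows were poor in CpG, the dinucleotide in which Polycomb target promoters of mammals are usually rich. They held a median of 1 CpG (range 0 to 13), against 13 in the windows of all protein-coding genes (21263 windows, range 0 to 67), and a median G+C content of 38.7% against 56.3%. Windows of the 21 members with a peak in either list and a window at hand held a median of 2 CpG and 42.7% G+C, against 1 CpG and 37.5% in 138 windows of members without a peak. The interquartile range of G+C was 39.0 to 44.7% in windows of members with a peak and 32.0 to 41.7% in those without. Of all 27 members with a peak, 19 lie on chromosome 11 and 4 on chromosome 15. Of the 161 without one, 67 lie on chromosome 10. Composition was not compared within a chromosome or cluster, so peak and location cannot be told apart here. The core of the homeodomain site, TAATTA, a class of site bound by Lhx2 and Emx2 at receptor promoters, occurred on either strand in 17.6% of members' windows and 4.53% of all windows, and of the sequences above in that of Olfr312. The core of the site of Ebf factors, CCCNNGGG, occurred in 3.77% and 15.6%, and in none of the 4 sequences above. TAATTA holds no G or C, and the fixed bases of CCCNNGGG are all G or C. The part of base composition in these shares was not tested. In 121 of the 159 members' windows (76.1%) an ATG stood at the annotated start, against 8.13% of all windows. For these members' windows the annotation begins at the coding sequence, and the true promoter may lie further upstream. The 2 sets of windows thus cover unlike regions.

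A peak in the gene or within 2000 bp was listed for 20 of the 188 members in irradiated cells (10.6%, exact 95% interval 6.62 to 16.0) and for 15 in control cells (7.98%, 4.53 to 12.8). Among all protein-coding genes the shares were 8.2% in the irradiated and 6.05% in the control list, both inside the members' intervals. Other protein-coding genes of the same chromosomes had 13.8% and 11.2%, also inside them. The 839 of these that were at most 5000 bp long had 4.65% (3.33 to 6.30) and 2.98% (1.94 to 4.37), below the members' intervals. The members were not limited in length, however, and 12 were longer than 5000 bp. Without those 12, the members with a peak numbered 15 in the irradiated and 12 in the control list. Intervals of their shares were not computed, so a comparison at like length is not given. Both lists held 8 members (3.67% of all genes), the irradiated list alone 12 (4.53% of all genes) and the control list alone 7 (2.38% of all genes). In all, 27 members (14.4%) had a peak in either list, and 161 had none. The share was 10.6% among all genes and 17.3% among other protein-coding genes of the same chromosomes. The 8 members in both lists were 40.0% of those in the irradiated list and 53.3% of those in the control list; among all genes these shares were 44.8% and 60.6%.

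Receptor genes are short, so their windows offer less room for a peak than those of most genes. The median length of a member was 945 bp, and 12 of 188 were longer than 5000 bp. Per Mb of window the members had 32.6 irradiated peaks (22.8 to 45.1) and 16.3 control peaks (9.66 to 25.7). Other protein-coding genes of the same chromosomes had 13.3 irradiated peaks per Mb (12.8 to 13.8) and 7.53 control peaks per Mb (7.17 to 7.89), and the 839 of them that were at most 5000 bp long had 11.4 (8.69 to 14.6) and 5.03 (3.31 to 7.32). The members' densities include the 12 longer genes. Without these, 22 irradiated and 13 control peaks lay at members, and their density was not computed. Olfr genes of the other chromosomes had 1.66 irradiated peaks (0.761 to 3.16) and 2.03 control peaks (1.02 to 3.64) per Mb.

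By chromosome, the members' shares differed in where they stood against other protein-coding genes, as follows. On chromosome 15, 4 of 9 members had an irradiated peak (44.4%) and 2 a control peak (22.2%), against 19.9% and 17.5% of its other genes. On chromosome 11, 13 of 83 (15.7%) and 11 (13.3%) had one, against 13.0% and 8.32%, and on chromosome 6, 2 of 28 (7.14%) in either list, against 14.7% and 12.5%. On chromosome 10, 1 of 68 members had an irradiated peak (1.47%) and 0 a control peak, against 9.11% of its other genes in each list. At 3 counts, 0 of 68 allows a share of up to 4.41%; the exact interval drawn for it ends at 5.28%. On chromosomes 6, 11 and 15 the members' intervals include the shares of the other genes. Shares do not allow for gene length. Per Mb of window, chromosome 15 members had 167 irradiated peaks (88.9 to 286), against 22.6 at its other genes. Chromosome 11 members had 40.5 irradiated (24.8 to 62.6) and 24.3 control peaks (12.6 to 42.5), against 16.1 and 5.90. Chromosome 6 members had 12.8 in each list (1.55 to 46.3), against 12.1 and 6.77. The other genes' densities lay inside the members' intervals there, on chromosome 10, and for control peaks on chromosome 15. Among Olfr genes elsewhere, 8 of 922 had an irradiated peak (0.868%) and 11 a control peak (1.19%). Peaks were not absent from those: on chromosome 1, 4 of 27 genes had an irradiated and 1 a control peak, and on chromosome 4, 4 of 24 and 5. The large receptor sets of chromosomes 2 (287 genes), 7 (239) and 9 (130) had no irradiated peak, and their control peaks were 0, 2 and 0.

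**Figure D1:**
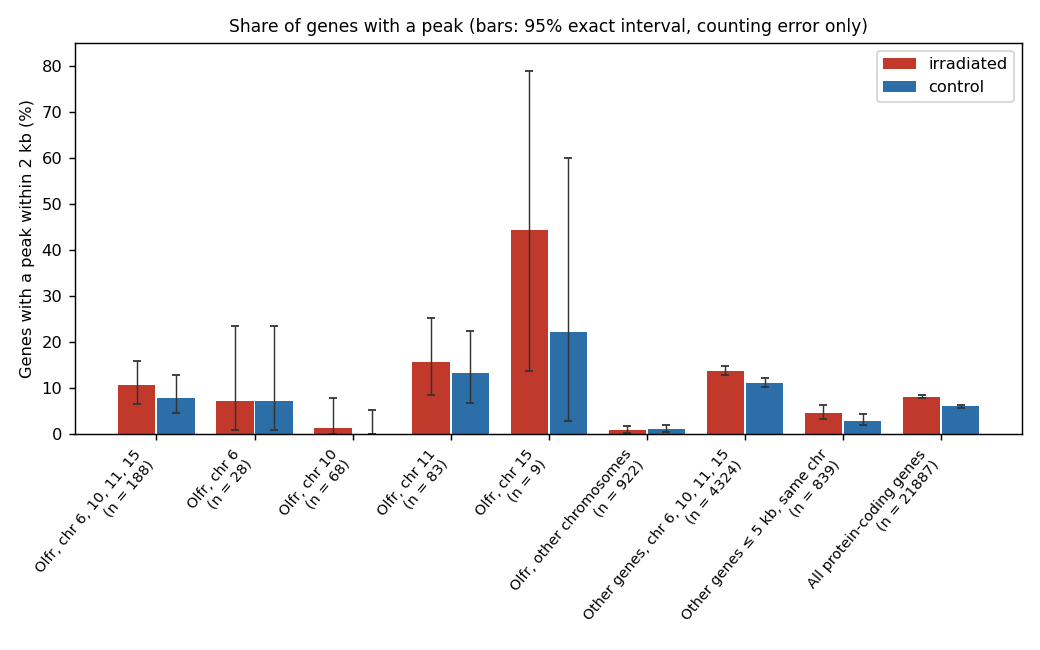
Share of genes with a peak in the gene or within 2 kb, in percent, in the irradiated (red, left) and control (blue, right) list, for the receptor genes by chromosome and for comparison sets; n is the number of genes and whiskers are exact 95% binomial intervals for counting error. The receptor genes of chromosome 15 have the highest shares, 44.4% and 22.2%, with wide intervals for 9 genes, and the Olfr genes of other chromosomes have 0.868% and 1.19%.

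Families of chemosensory receptors other than Olfr were read against the 8.2% (irradiated) and 6.05% (control) of all genes. None of the 230 genes of the vomeronasal family Vmn1r had a peak in either list. Of the 123 genes of the vomeronasal family Vmn2r, 2 had an irradiated (1.63%) and 6 a control peak (4.88%). Of the 35 Tas2r genes, which encode bitter taste receptors, 1 had an irradiated (2.86%) and 3 a control peak (8.57%, 1.80 to 23.1). Of the 15 Taar genes, which encode trace amine receptors of the nose, 1 had an irradiated peak (6.67%) and 0 a control peak. The 7 formyl peptide receptor genes had none. Olfr pseudogenes of chromosomes 6, 10, 11 and 15 had an irradiated peak in 3 of 44 cases and a control peak in 1.

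The members' peaks were of ordinary strength for these lists. The 36 irradiated peaks had a median fold enrichment over the background of 3.84 (range 2.71 to 5.46), against 3.67 for all irradiated peaks, and the 18 control peaks a median of 3.68 (2.78 to 5.05), against 3.43. The fold is the value of the authors' caller at the summit. The number of ChIP reads at a summit, recovered from fold and p, had a median of 11 in irradiated peaks at members (8 to 19) and of 10 in control peaks (7 to 14), the same medians as in the whole lists. After the authors' adjustment of the peak p over the genome (q), 5 of the 36 irradiated and 2 of the 18 control peaks had a q of at most 0.05. These lay in 3 members in irradiated cells (1.60%; 2.08% of all genes) and in 2 in control cells (1.06%; 0.516% of all genes). The local background stood within 5% of the lowest of its list under 14 irradiated and 11 control peaks and reached at most 2.00 and 1.70 scaled reads, against a lowest value of 0.704 and 0.918.

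Most peaks lay in the receptor genes themselves. Of the irradiated peaks, 25 overlapped the gene, 5 lay upstream, 4 downstream and 2 beside a gene whose strand was not in the table; of the control peaks, 11, 4, 2 and 1. No peak was counted for more than 1 member. Among the 27 members with a peak, 18 had at most 1 peak in each list, and the largest number was 7 irradiated and 3 control peaks, both at Olfr287.

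Olfr1396 (chromosome 11, 49112777 to 49113757), at the edge of its cluster, was the sole member with a q of at most 0.05 in both lists. Its strongest irradiated peak (49112783 to 49113685) had 14 reads and 5.14-fold enrichment (q = 0.0119), and its strongest control peak (49113151 to 49113717) had 14 reads and 5.05-fold enrichment (q = 0.0157). Both stood at the lowest background of their list and overlapped by 535 bp. A further peak lay upstream in each list, at 49115481 to 49115961 in irradiated and at 49114809 to 49115133 in control cells, and these did not overlap.

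Olfr311 (chromosome 11, 58841116 to 58842042) had the highest fold among the members, in the irradiated list. Its 3 irradiated peaks included that at 58840942 to 58841268 over the start of the gene, with 15 reads and 5.46-fold enrichment (q = 0.00171). The control list held 1 peak, at 58839496 to 58839779 upstream, with 7 reads and 2.78-fold enrichment (q = 1), and it overlapped none of the irradiated ones. The neighbour Olfr312 (58831156 to 58832082) had 2 irradiated peaks, the strongest with 4.16-fold enrichment (q = 0.0536), and 1 control peak with 3.91-fold enrichment (q = 0.385). These peaks at Olfr312 overlapped by 34 bp. Olfr311 and Olfr312 carry the family name MOR222, and Olfr313, the other member of that family, had no peak.

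Olfr287 (chromosome 15, 98202311 to 98221056), which at 18746 bp is annotated far beyond a receptor coding sequence, held 7 irradiated peaks and 3 control peaks. The irradiated peak with the lowest q (98220468 to 98220787) had 19 reads and 5.27-fold enrichment (q = 0.00155), and another (98217202 to 98218204), 1003 bp wide, had 18 reads and 5.34-fold enrichment (q = 0.00322); neither met a control peak. A further one, downstream of the gene, had 4.81-fold enrichment (q = 0.0119) and overlapped a control peak of fold 3.75 and q 0.385. The lowest control q was 0.174, at a fold of 3.74.

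The neighbours of Olfr287 lie in the same cluster. Olfr288 (98186011 to 98195542) had 3 irradiated peaks and 1 control peak, with 4.16-fold enrichment (q = 0.0536) in the irradiated and 3.08-fold enrichment (q = 1) in the control list. Olfr286 (98226675 to 98234450) had 2 irradiated peaks, the strongest with 4.16-fold enrichment (q = 0.0597), and Olfr285 had 1, with 3.55-fold enrichment (q = 0.149); neither had a control peak. Olfr286, Olfr287 and Olfr288 are the 3 members of the family MOR286, and all 3 had a peak.

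Olfr1371 (chromosome 11, 52213052 to 52213987) was the other member with a control q of at most 0.05. It had 1 peak in each list: 11 reads and 3.92-fold enrichment (q = 0.0536) in the irradiated list, and 14 reads and 4.84-fold enrichment (q = 0.0236) in the control list. Olfr1393 (chromosome 11), annotated over 28487 bp, had folds of 4.16 in irradiated and 2.78 in control cells, with a q of 0.0536 and 1. Olfr449 (chromosome 6, 42834416 to 42838882) had folds of 3.84 and 4.40, with a q of 0.149 in irradiated and 0.0823 in control cells. For these 3 genes the peaks of the lists overlapped.

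A control peak overlapped 7 of the 36 irradiated peaks at members (19.4%, 8.19 to 36.02), and these met 7 of the 18 control peaks (38.9%, 17.3 to 64.3). Over all peaks these shares were 13.3% and 21.4%. The 7 pairs lay at Olfr1396, Olfr1393, Olfr1371, Olfr312, Olfr288, Olfr287 and Olfr449. The fold was higher in the irradiated list in 5 pairs and in the control list in 2, with a median ratio of irradiated to control of 1.06 (0.810 to 1.495). The lists were scaled separately, so the ratio compares the authors' values and not amounts of the mark.

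The 12 members that had irradiated peaks but no control peak were led, by q, by Olfr286 and by Olfr225 (chromosome 11), whose strongest peak had 4.04-fold enrichment (q = 0.0826) and lay 1814 bp downstream. Olfr1375 (chromosome 11) had 3.88-fold enrichment (q = 0.129). Olfr1378, Olfr1380, Olfr330 and Olfr464 on chromosome 11, Olfr285 on chromosome 15 and Olfr214 on chromosome 6 had folds of 3.49 to 3.84 and a q of 0.149. Olfr1356, on chromosome 10, had 9 reads and 3.51-fold enrichment (q = 0.537). Olfr224 and Olfr1394, both on chromosome 11, completed this group, with folds of 2.76 and 2.71 and a q of 0.537 and 0.857. None of the 12 reached a q of 0.05, and a gene without a control peak may carry the mark below the threshold of that list.

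The 7 members with a peak in the control list alone had 1 peak each. Olfr331 (chromosome 11) had 12 reads and 4.40-fold enrichment (q = 0.0823). Its promoter window was 95.3% identical to that of Olfr325, but the peak lies outside this window, and identity within the genes was not computed. The promoter window of Olfr1380, named above, was 96.0% identical to that of Olfr1381, and the peak of Olfr1380 covers 13 bases of it. Olfr320 and Olfr315 had folds of 4.08 and 3.61 and a q of 0.385, and Olfr1385 3.43-fold enrichment (q = 0.831). Olfr10, Olfr1373 (both chromosome 11) and Olfr213 (chromosome 6) had folds of 3.11, 3.11 and 2.98 and a q of 1.

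**Figure D2:**
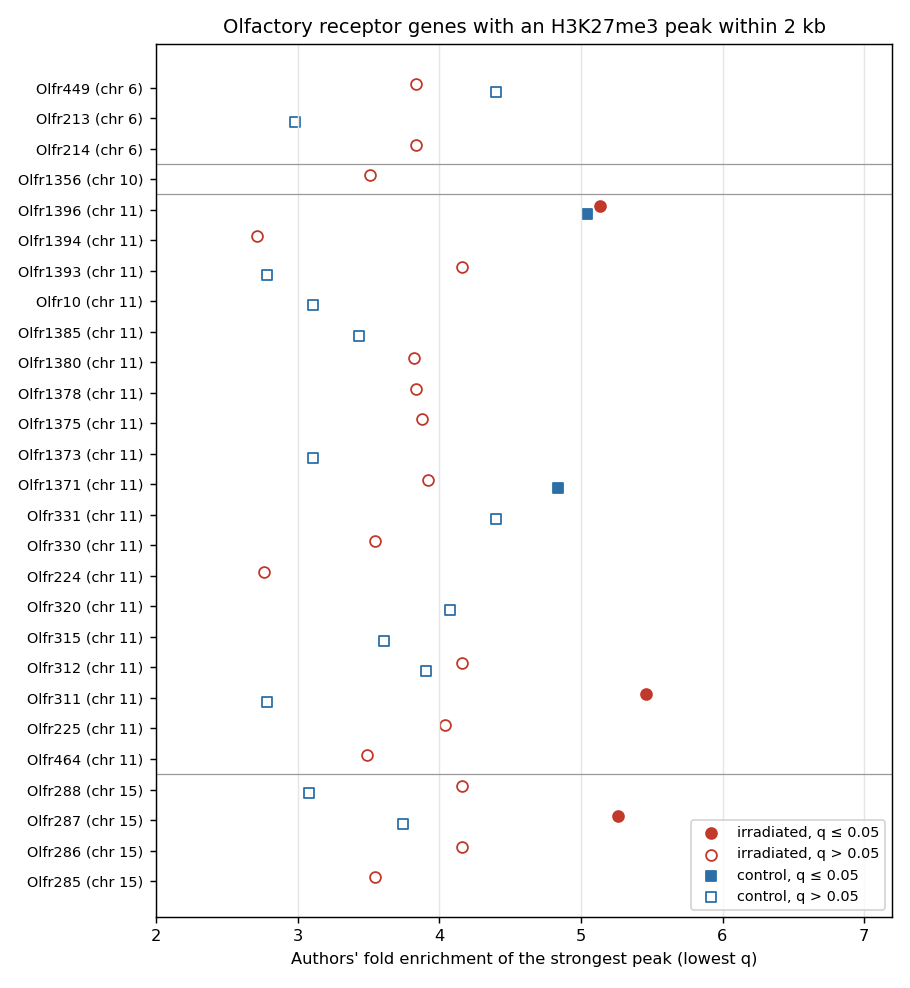
Authors' fold enrichment of the peak with the lowest q at each of the 27 receptor genes with a peak, in the irradiated (red circles) and control (blue squares) list; filled symbols have a q of at most 0.05. Most symbols are open and lie between folds of 2.7 and 4.4, and Olfr1396 alone is filled in both lists.

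The limit of 2000 bp fell among other peaks. The peaks just inside it were the irradiated ones of Olfr225, at 1814 bp, and of Olfr1396, at 1724 bp. Just outside, the nearest peak stood 2027 bp from Olfr223 (irradiated), 2054 bp from Olfr1377 (control), 2140 bp from Olfr767 (control), 2182 bp from Olfr222 (irradiated) and 2333 bp from Olfr279 (irradiated).

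The members formed 12 groups of neighbours less than 1 Mb apart, of which 10 had at least 3 members and are called clusters here; each is named by its outermost genes. Together the 10 clusters spanned 6399 kb and held 110 irradiated peaks, 17.2 per Mb (14.1 to 20.7), and 54 control peaks, 8.44 per Mb (6.34 to 11.01). The remaining span of the chromosomes held 15.3 irradiated and 10.0 control peaks per Mb, which lie within these intervals. The intervals of single clusters did not all overlap.

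The cluster Olfr288 to Olfr279 on chromosome 15 (98186011 to 98498406, 9 genes) had 32 irradiated peaks, 101 per Mb (69.2 to 143), and 12 control peaks, 37.9 per Mb (19.6 to 66.3). The rest of chromosome 15 had 27.7 and 22.1 per Mb, and the 1 Mb on either side of the cluster had 15 and 4. The ratio of irradiated to control peaks in the cluster was 2.67 (1.34 to 5.69). Of its peaks, 13 irradiated and 4 control ones lay at members, and 6 and 1 had a q of at most 0.05.

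Chromosome 11 held both dense and empty clusters. Olfr30 to Olfr225 (58454915 to 59614225, 24 genes) had 37 irradiated peaks, 31.8 per Mb (22.4 to 43.8), and 12 control peaks, 10.3 per Mb (5.33 to 18.0), a ratio of 3.08 (1.57 to 6.49). Its flanks had 34 and 10.5 per Mb, within both intervals of the cluster. Olfr1396 to Olfr1380 (49112777 to 49564858, 19 genes) was the sole cluster with fewer irradiated than control peaks, 13 against 17, a ratio of 0.765 (0.342 to 1.67); its flanks had 14.5 and 6 per Mb. Within it, the butyrophilin-like gene Btnl9 between the receptors had 2 irradiated and 3 control peaks. Olfr1378 to Olfr1375 (5 genes) had 5 irradiated peaks and 1 control peak, and Olfr462 to Olfr464 (3 genes) also 5 and 1; the pair Olfr1373 and Olfr1371, too few for a cluster, had 4 and 7 in 73.4 kb.

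The cluster Olfr20 to Olfr412 on chromosome 11 (73350859 to 74365609, 30 genes) had no peak in either list, which with 1019 kb allows up to 2.94 peaks per Mb at 3 counts; the exact Poisson interval drawn for it ends at 3.62. The rest of chromosome 11 had 17.9 irradiated and 7.65 control peaks per Mb, and the flanks of this cluster 12 and 3. The nearest peak stood a median of 263 kb (15.5 to 564) from these genes in the irradiated and 959 kb (413 to 1391) in the control list. The largest cluster, Olfr9 to Olfr827 on chromosome 10 (128989914 to 130211128, 58 genes), had 3 irradiated peaks and 1 control peak, none of them at a member. Its flanks were also sparse, with 2 irradiated peaks and 1 control peak. That is 1 and 0.5 per Mb if a full 1 Mb lies on either side, and the end of the chromosome was not allowed for. The other cluster of chromosome 10, Olfr1358 to Olfr57 (10 genes), had 6 and 3 peaks, of which 1 irradiated peak lay at a member.

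On chromosome 6, the cluster Olfr459 to Olfr47 (21 genes) had 8 irradiated and 6 control peaks, 5.45 per Mb (2.35 to 10.7) and 4.08 per Mb (1.499 to 8.89), against 13.4 and 8.41 on the rest of the chromosome. Olfr211 to Olfr215 (5 genes) had 1 peak in each list, at Olfr214 in the irradiated and at Olfr213 in the control list. The pair Olfr461 and Olfr460 had none.

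**Figure D3:**
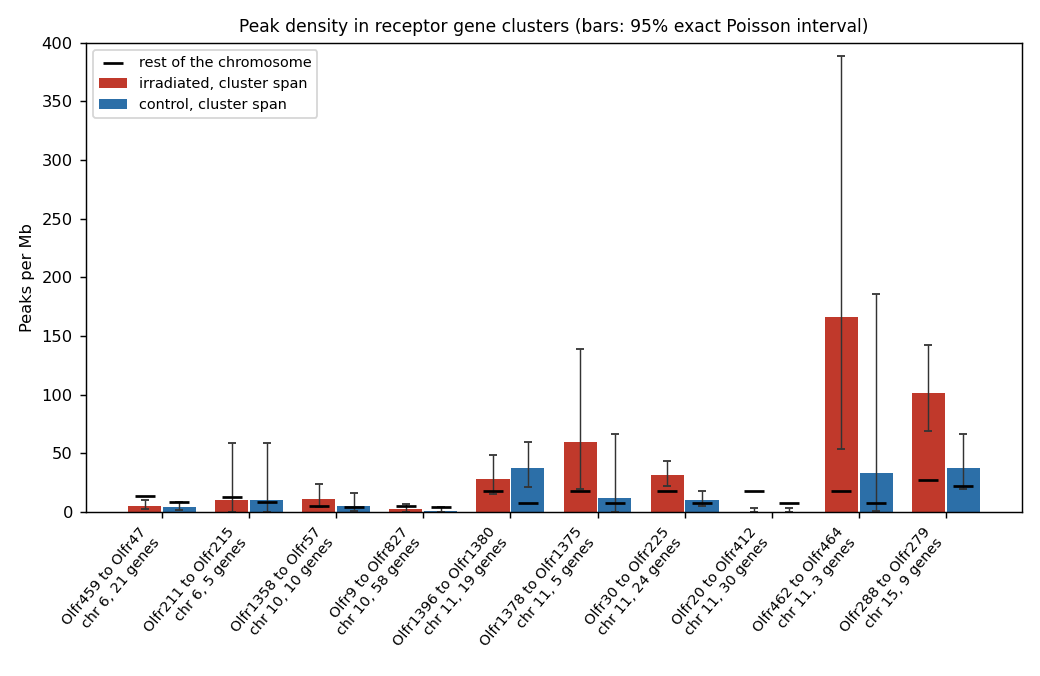
Peaks per Mb in each receptor cluster of at least 3 genes, in the irradiated (red, left) and control (blue, right) list, with exact 95% Poisson intervals; black dashes give the rest of the same chromosome. The clusters range from 0 at Olfr20 to Olfr412 to 101 irradiated peaks per Mb at Olfr288 to Olfr279, and 166 in the 30.0 kb of Olfr462 to Olfr464, where 5 peaks leave a wide interval.

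**Figure D4:**
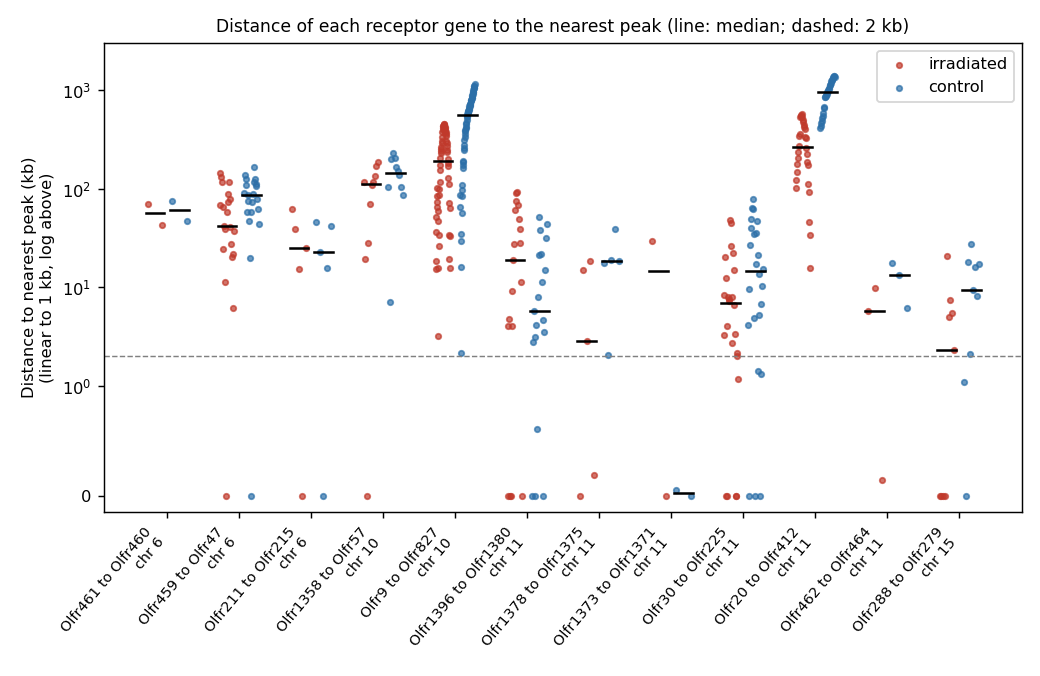
Distance of each of the 188 receptor genes to the nearest irradiated (red, left) and control (blue, right) peak, in kb, by group of neighbours (linear scale to 1 kb, log scale above; points within a group in chromosome order); black lines are medians and the dashed line is the 2 kb limit. Genes of Olfr20 to Olfr412 and Olfr9 to Olfr827 stand farthest, with irradiated medians of 263 and 190 kb, and those of Olfr288 to Olfr279 a median of 2.33 kb.

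Within the 10 clusters, the windows of the members took 16.9% of the span and held 35 of the 110 irradiated and 16 of the 54 control peaks. That is 32.4 irradiated peaks per Mb of window (22.6 to 45.1) against 14.1 per Mb (11.1 to 17.7) in the remainder of the spans, and 14.8 (8.48 to 24.1) against 7.14 (5.05 to 9.80) in the control list. The counts were the same when a peak was placed by its summit. The values of single clusters differed in this, but within each cluster the intervals of the windows and of the remainder overlapped. Irradiated density was lower in the windows at Olfr462 to Olfr464 (71.2 against 250) and Olfr9 to Olfr827 (0 against 3.20). It was alike at Olfr1358 to Olfr57 (11.1 each), 0 throughout Olfr20 to Olfr412, and higher in the windows of every other cluster. At Olfr459 to Olfr47 and at Olfr211 to Olfr215 the higher value rested on 1 window peak each. The chromosome 15 cluster held 13 of the 35 irradiated window peaks, 7 of them at Olfr287. Its densities were 167 (88.9 to 286) and 79.6 (48.0 to 124) in the irradiated list and 51.4 (14.003 to 132) and 33.5 (14.5 to 66.1) in the control list. Of 62 other protein-coding genes within the spans of the 12 groups, 11 had a peak in either list (17.7%). The share was 10.6% among all genes and 17.3% among genes other than Olfr on chromosomes 6, 10, 11 and 15. The 11 included Wnt3a, which encodes a ligand of the Wnt pathway, and Nlrp3, which encodes an inflammasome sensor. These had 3 and 2 irradiated peaks and no control peak. Lalba, which encodes the milk protein alpha-lactalbumin and lies in the chromosome 15 cluster, had 2 irradiated peaks and 1 control peak.

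**Figure D5:**
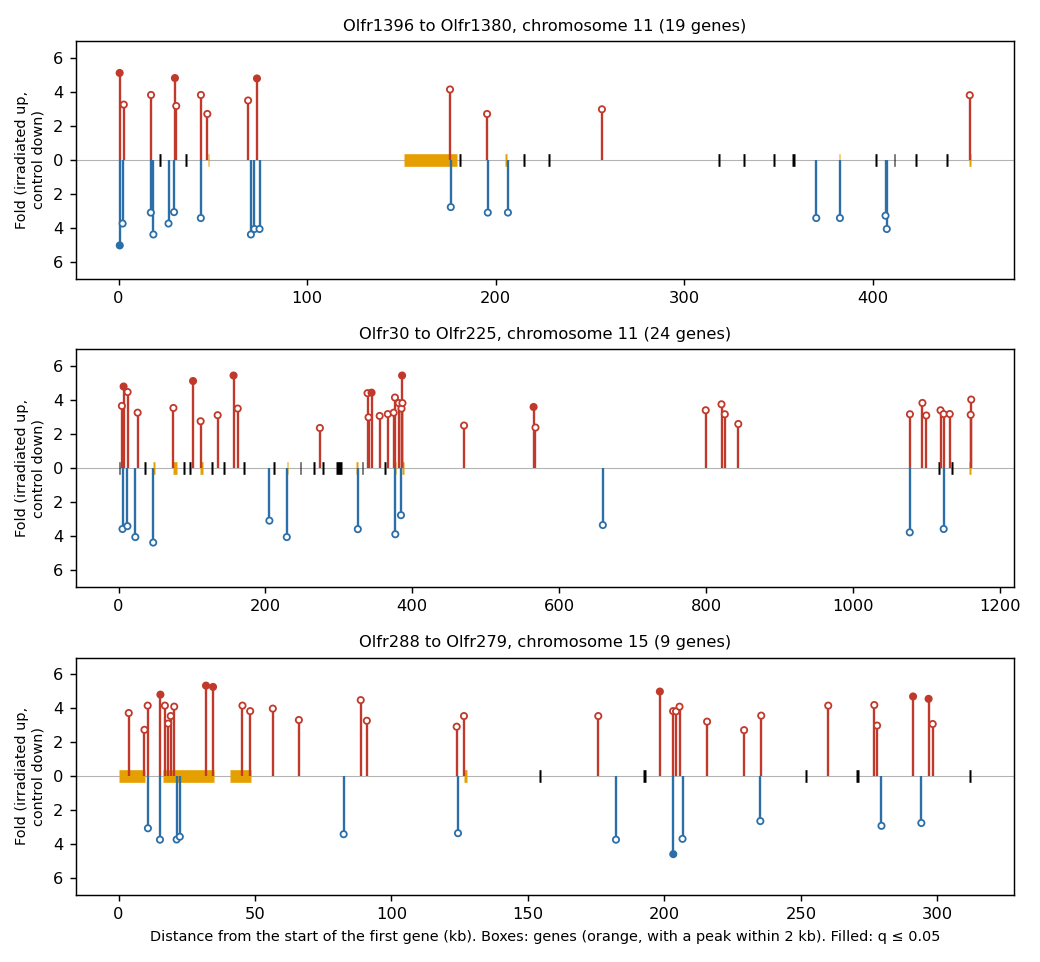
Peaks along 3 receptor clusters, with distance from the start of the outermost gene in kb on the horizontal axis and the authors' fold on the vertical axis, irradiated peaks upward (red) and control peaks downward (blue); filled circles have a q of at most 0.05 and boxes are receptor genes (orange where a peak lies within 2 kb, otherwise black). The Olfr1396 to Olfr1380 cluster has 13 irradiated and 17 control peaks, Olfr30 to Olfr225 has 37 and 12, and Olfr288 to Olfr279 has 32 and 12.

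The family names of the annotation (MOR numbers, which group receptors by sequence) were available for 184 members in 48 families, of which 15 had a member with a peak. MOR256, the largest family with 20 members, had 5 with a peak: Olfr10, Olfr225, Olfr1371, Olfr1385 and Olfr1393. In MOR275, whose 6 members all lie in the cluster Olfr30 to Olfr225, 3 had a peak. The families MOR135 (18 members), MOR114 (13), MOR261 (11) and MOR111 (10) had none. All of MOR135 lies in Olfr20 to Olfr412, all of MOR114 and MOR111 in Olfr9 to Olfr827, and all of MOR261 in Olfr459 to Olfr47. For these families and MOR275, family and cluster cannot be told apart. Members of MOR256 lay in 3 groups of neighbours, and each of these held a MOR256 gene with a peak.

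The total number of peaks at members was 2.00 times as high in the irradiated as in the control list (1.11 to 3.74). The same ratio was 1.95 (1.87 to 2.03) for all protein-coding genes and 1.76 (1.66 to 1.87) for other genes of chromosomes 6, 10, 11 and 15, both inside the members' interval. Chromosome 15 had 13 irradiated and 4 control peaks at members, chromosome 11 had 20 and 12, chromosome 6 had 2 and 2, and chromosome 10 had 1 and 0. The listed peaks had at least 8 reads in the irradiated and 7 in the control list. When the irradiated list was shortened to the length of the control list by p, 27 irradiated and 18 control peaks lay at members. The same counts for other genes were not computed at equal list lengths, so these have no background here. Library depth is unknown, and its part in the ratio was not tested.

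Genes that act with the receptors were counted from a list of 30, of which all were annotated. A peak was listed for 9 in irradiated (30.0%, against 8.2% of all genes) and for 7 in control cells (23.3%, against 6.05%), and all 7 had one in both. The genes of the list are of very unequal length, and a longer gene offers more room for peaks. Among genes of odorant signalling these were Gnal, the G protein alpha subunit of the receptors (22 irradiated and 8 control peaks), Ano2, the calcium-activated chloride channel (68 and 35), Slc24a4, the exchanger that removes calcium after a response (6 and 1), and Pde1c, a phosphodiesterase of the cilia (10 and 7). Reep1, related to receptor transport, had 3 and 1. Of the transcription factors, Ebf1 had 30 and 10 and Ebf2 had 7 and 5, while Ebf3 and Ebf4 had none. Cngb1, a subunit of the cyclic nucleotide-gated channel, and Trim66, a chromatin factor of receptor choice, had 1 irradiated peak each and no control peak. These 9 genes are between 67543 bp (Cngb1) and 582713 bp (Pde1c) long, far longer than the receptors. The short genes of the list, such as Omp, Rtp1, Rtp2, Emx2 and Gng13, had no peak. Nor did 6 genes at least as long as Cngb1, which were Gnb1, Adcy3, Slc12a2, Ric8b, Ebf3 and Ebf4.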

How the data were processed

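Per the labels' protocols, chromatin of GL261 cells was fixed with 1% formaldehyde, sonicated to 300 to 500 bp, precipitated and sequenced as 150-bp pairs. BWA, deepTools and mm10 appear in the submitters' processing notes; neither the peak caller nor any use of the inputs is stated in the sources at hand. The authors deposited 1 peak list per H3K27me3 library. Each line holds other values deposited in bp (interval and summit), a deposited score equal to 10 times the −log10 p cut to a whole number, a fold enrichment that the authors' caller gave as a ratio, and −log10 p-value and q-value columns deposited by the authors. The largest p was 0.00499 in the irradiated and 0.00495 in the control list.

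Lines with a further summit of an interval were merged, the highest being kept. Reads and background of each peak were recovered from fold and p under a Poisson model. It solved 100% of peaks within 0.001 of −log10 p, with more than 1 solution in 0.292% of irradiated and 0% of control peaks, and returned the right reads for 100% of 3000 peaks in each list simulated under that same model. This tests the inversion alone, not whether the model holds for the deposited peaks. ChIP library totals are unknown. A gene had a peak when one lay in it or within 2000 bp; peaks were shared at 1 bp of overlap. Binomial shares have Clopper-Pearson and counts Poisson 95% intervals; ratios of counts use the binomial share. The limit given for a count of 0 is 3 counts, which is below the end of the two-sided exact interval drawn in plots. Promoter windows came from RefSeq (GRCm38.p6). No test was run. Python 3.11.15, pandas 2.3.3, scipy 1.17.1 and Biopython 1.88 were used.

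Genes were named by rule: every member with a peak in both lists or a q of at most 0.05, up to 10 further ones per list by q, the 5 nearest outside the window and every cluster. Others complete short counts or were chosen after their values were seen, as were the promoter sequences, the families and the neighbouring genes. The members, lists and clusters were chosen with earlier results of these data known. Alternatives were stricter peaks, equal list lengths, other windows, gaps and overlaps, merged peaks, low-background peaks and other gene sets.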

Additional observations from a re-analysis of the deposited data

How the results depend on the processing

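No paired analysis was possible because each group had 1 library. Of 57 alternative values, 34 stayed within 1.5 times the reported number (counts) or within the reported 95% interval (densities and shares of overlapping peaks). The counts that moved are given for the irradiated list, the control list and, for members, both lists. Members with a peak numbered 20, 15 and 8 as reported. They numbered 3, 2 and 1 with a q of at most 0.05 and 6, 4 and 1 with a −log10 p of at least 5. With a window of 5000 bp they numbered 33, 25 and 13. Of all protein-coding genes, 2.08% in the irradiated and 0.516% in the control list had a peak with a q of at most 0.05. Shares of all genes were not computed for the −log10 p limit or for 5000 bp, so those counts have no background here. Peaks at members numbered 36 and 18 as reported, 5 and 2 with that q, 9 and 4 with that p, 56 and 30 with 5000 bp, and 14 and 11 over the lowest background; with gene bodies alone the control count was 11. Without members over 5000 bp, an alternative added after seeing the data, 5 members had a peak in both lists and 22 irradiated peaks remained. Peak density in clusters moved to 2.66 and 0.313 per Mb with that q. With equal numbers of peaks the irradiated density was 11.1 per Mb, against 8.44 in the control list. Densities outside the clusters were not computed for that q or for equal numbers of peaks, so these have no background here. Most peaks rest on 7 to 14 reads, so a member without a peak may carry the mark below the threshold.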
